A study of Mus musculus with 10 samples.

Results

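Among liver RNA-seq libraries of 10 mice, 3 carried less than 70 CPM (counts of a gene per 1000000 counted) of Clec4f, the transcript of a C-type lectin that marks Kupffer cells in mice. They came from wild-type males 2 and 3 and from S400D/WT male 1, and the other 7 libraries lay above that level. The libraries were chosen by their Clec4f value and by nothing else, so Clec4f and every other gene compared between the 3 and the 7 libraries are given as descriptions without a test. The study sequenced poly(A) RNA from whole liver of C57BL6/N mice aged 2 months that differed in the Htra2 gene, which encodes the mitochondrial serine protease HtrA2/Omi. The groups were 3 males with both alleles wild type (WT/WT), 3 males with 1 mutant allele (S400D/WT), 3 males with both alleles mutant (S400D/S400D) and 1 S400D/S400D female. The labels do not say how the allele was made, when the livers were collected or which animals were littermates. The p-values below set genotype differences against the spread between these libraries, with each animal taken as independent. The low-Clec4f set holds no homozygote and no female, so the set overlaps with genotype: 2 of 3 wild-type males, 1 of 3 heterozygous males and 0 of 4 homozygotes.

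Kupffer cells are the resident macrophages of the liver. They sit inside the sinusoids, next to the fenestrated sinusoidal endothelium and close to the stellate cells that line the outside of the vessel, and they depend on CSF1, Notch and TGF-beta family signals from those neighbours. They clear particles, complement-coated microbes, aged red cells and free haemoglobin from portal blood. In RNA of a whole liver most transcripts come from hepatocytes, and fewer Kupffer cells cannot be told apart from less RNA per Kupffer cell.

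Clec4f measured 45.2 CPM in wild-type male 2, 38.8 in wild-type male 3 and 48.9 in heterozygous male 1. In the other 7 libraries it ranged from 97.1 to 115 CPM with a median of 104 CPM. No library lay between 48.9 CPM, the highest value inside the set, and 97.1 CPM, the lowest value outside it. The remaining wild-type liver, male 1, held the highest Clec4f value of all 10 libraries, 115 CPM. The gene lies on the minus strand of chromosome 6 at chr6:83644542-83656116 (GRCm38.p6), 589971 bases from Htra2, which is at chr6:83051266-83054571.

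The label of the set, low Kupffer signal, was checked against genes that the choice did not use. Macrophage genes lay lower with Clec4f, but genes of sinusoidal endothelium, stellate cells and red cells did too, so the libraries are called low-Clec4f below and not low-Kupffer. The bases before the start of 4 macrophage genes are shown because their transcripts are described below and moved together across the libraries. Each line gives 250 bases upstream of the RefSeq transcript start (GRCm38.p6), 5′ to 3′ on the strand of the gene, with capitals marking GAGGAA or its other-strand form TTCCTC, letters that are common in binding sites of the macrophage factor PU.1. The windows are chr6:83656117-83656366 for Clec4f, chrX:96293439-96293688 for the complement receptor gene Vsig4, chr3:87357631-87357880 for the secreted scavenger protein gene Cd5l and chr4:136886201-136886450 for the complement gene C1qb.
Clec4f: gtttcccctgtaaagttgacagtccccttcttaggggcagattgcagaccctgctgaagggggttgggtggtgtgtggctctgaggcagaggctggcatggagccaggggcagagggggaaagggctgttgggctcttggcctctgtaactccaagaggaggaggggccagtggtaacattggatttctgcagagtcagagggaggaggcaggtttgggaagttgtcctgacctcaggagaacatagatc
Vsig4: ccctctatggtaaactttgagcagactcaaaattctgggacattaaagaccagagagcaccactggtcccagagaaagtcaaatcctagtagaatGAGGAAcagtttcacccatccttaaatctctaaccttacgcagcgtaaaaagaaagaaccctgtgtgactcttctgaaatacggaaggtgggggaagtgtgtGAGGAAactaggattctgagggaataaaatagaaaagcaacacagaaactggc
Cd5l: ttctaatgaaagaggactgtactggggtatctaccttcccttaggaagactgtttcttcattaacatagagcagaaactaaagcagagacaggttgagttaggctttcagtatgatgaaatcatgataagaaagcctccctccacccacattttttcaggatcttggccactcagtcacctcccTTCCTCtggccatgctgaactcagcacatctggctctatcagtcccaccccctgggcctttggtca
C1qb: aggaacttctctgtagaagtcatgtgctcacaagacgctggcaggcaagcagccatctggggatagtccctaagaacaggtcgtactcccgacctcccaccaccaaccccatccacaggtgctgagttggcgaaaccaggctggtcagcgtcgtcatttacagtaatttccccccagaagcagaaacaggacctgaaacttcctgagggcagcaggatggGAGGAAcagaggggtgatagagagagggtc
Vsig4 held 2 matches, Cd5l and C1qb 1 each and Clec4f 0. These letters, chosen after some windows had been looked at, occurred in 23.3% of all 32851 RefSeq windows of this length. Among genes of the lists described below whose 2 sets did not overlap, they occurred in 5 of 12 windows of Kupffer cell genes, 10 of 15 windows of pan-macrophage genes and 3 of 10 windows of endothelial genes. Windows were available for 11 of 12 such Kupffer genes, 13 of 18 pan-macrophage genes and 10 of 19 endothelial genes. Some genes had more than 1 window. A match is a string of letters and not a measured binding site.

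Library totals ranged from 16240441 to 17264289 counts, and the sets overlapped in depth. The low-Clec4f libraries held 14463 to 14588 genes with at least 1 count, against 14598 to 14882 in the other 7. The mean transcript length implied by the counts was 2250 to 2372 bases in the low-Clec4f libraries and 2309 to 2446 bases in the others. Among genes split by transcript length, the share with every low-Clec4f library below every other was 5.90% in the shortest of 3 equal classes, 10.2% in the middle one and 13.2% in the longest. A clock index, the log2 ratio of Arntl to Dbp, ran from -7.73 to -5.21 in the low-Clec4f libraries and from -7.01 to 4.91 in the others. The part of length and clock phase in the results was not tested by a model, and values within a narrow range of the index are given below.

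A gene is called separated when every low-Clec4f library lay on one side of every other library. Of 11843 genes with at least 1 CPM in 3 or more of the 10 libraries, 1154 were separated with the low-Clec4f libraries below (9.74%) and 103 with them above (0.87%). The median over the 11843 genes of the difference between sets (low-Clec4f minus other, in median log2(CPM + 0.5)) was -0.11. Rescaled with TMM factors, which align the bulk of genes between libraries, the median was 0.01, and 713 genes (6.02%) were separated below and 387 (3.27%) above. A gene could pass the level filter through the 7 other libraries alone, so counts over members that passed describe these libraries and support nothing beyond them.

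Most of the listed markers of Kupffer cells were lower in the 3 livers. Apart from Clec4f, 17 markers were listed and 17 passed the filter. Of these, 12 were separated below and 0 above, and the median difference was -1.01. Vsig4, which encodes a receptor that binds complement-coated particles, measured 10.3, 6.85 and 8.64 CPM in wild-type males 2 and 3 and heterozygous male 1. It measured 23.7 to 29.1 CPM (median 27.0) in the other 7 libraries, a median 3.12 times higher. Cd5l measured 36.3, 32.6 and 42.6 CPM in the same 3 livers and 91.9 to 138 CPM (median 111) in the others. The sets did not overlap for either gene, and the gap between the nearest libraries was more than the spread within the other 7.

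Timd4, a receptor for phosphatidylserine on dying cells, measured 3.36, 2.26 and 3.99 CPM in the low-Clec4f libraries, in the order wild-type males 2 and 3 and heterozygous male 1. In the other 7 it ranged from 6.65 to 10.2 CPM with a median of 8.78. Marco, a scavenger receptor for bacteria and particles, measured 1.62, 1.85 and 3.52 CPM against 4.06 to 22.4 CPM (median 9.82). Its 7 higher values were themselves spread, with heterozygous male 2 lowest and homozygous male 1 highest, so its difference of -2.14 rests on a wide set. Fcna, a ficolin lectin that starts complement, measured 14.1, 11.6 and 19.5 CPM against 30.7 to 49.5 CPM (median 37.5). Folr2, a folate receptor of resident macrophages, measured 4.11, 2.80 and 4.35 CPM, and its gap to homozygous male 1 at 4.60 CPM was narrow.

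Genes for handling haemoglobin and iron divided. Cd163, the receptor for haptoglobin-bound haemoglobin, measured 6.95, 7.80 and 4.05 CPM in the low-Clec4f livers and 12.6 to 29.9 CPM (median 17.8) in the others. Hmox1, which opens the haem ring, measured 7.88, 9.29 and 10.0 CPM against 16.7 to 29.1 CPM (median 21.7). Slc11a1, a metal transporter of phagosomes, measured 4.63, 2.68 and 4.23 CPM against 7.64 to 10.4 CPM (median 9.03). These 3 genes were the separated members among 15 iron and haem genes, whose median difference was -0.19. Slc40a1, the iron exporter ferroportin, measured 105, 142 and 123 CPM against 102 to 186 CPM (median 164), and the sets overlapped.

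The other Kupffer markers whose sets overlapped were Id3, Nr1h3, C6 and Clec1b. Nr1h3, the nuclear receptor LXR-alpha that hepatocytes also express, measured 86.8, 76.1 and 89.1 CPM against a median of 88.1 CPM. Id3 and C6 had the opposite sign. Id3 measured 34.8, 21.7 and 31.4 CPM against 16.5 to 91.1 CPM (median 22.0), a difference of 0.50. Within the heterozygous and the wild-type males the Id3 difference was -0.38 and -0.06. For C6, a terminal complement component also made by hepatocytes, the difference was 1.37. Its levels of 221, 126 and 217 CPM overlapped those of the other 7, 12.6 to 155 CPM, and the lowest of those was the female. Spic, a factor of iron-recycling macrophages, was separated by almost nothing, with 1.19 CPM in heterozygous male 1 and 1.20 CPM in wild-type male 1.

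**Figure D1:**
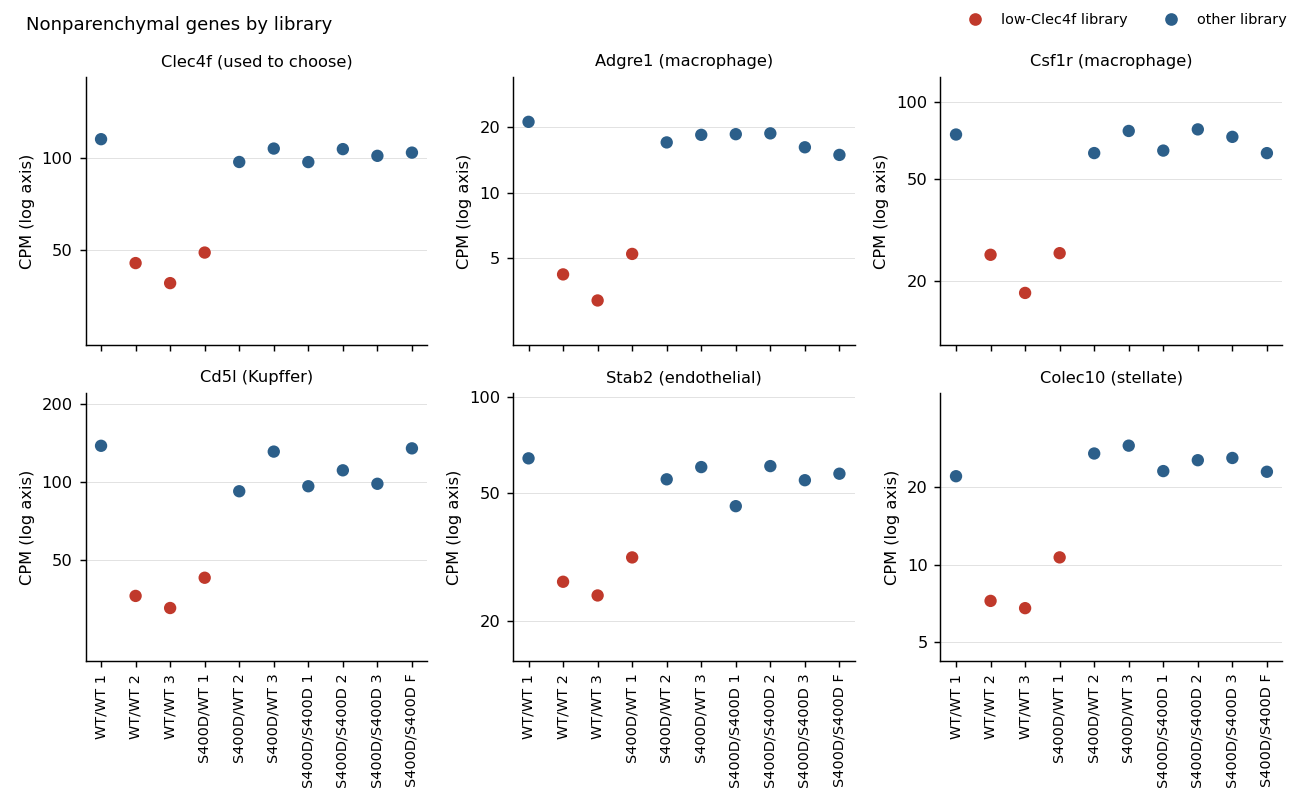
CPM on a log axis (vertical) of 6 genes in each of the 10 libraries (horizontal, by genotype and number, F for the female), with low-Clec4f libraries in red and the others in blue. Clec4f chose the sets and runs from 38.8 to 48.9 CPM in red against 97.1 to 115 CPM in blue; in the other panels each red point lies below each blue point.

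The genes that macrophages share beyond the liver were lower to a similar extent. Of 21 pan-macrophage genes, 18 were separated below and 0 above, with a median difference of -1.08. Adgre1, which encodes the surface antigen F4/80, had the widest gap among genes with a regular name and a median of at least 5 CPM in the higher set. It measured 4.23, 3.21 and 5.24 CPM in wild-type males 2 and 3 and heterozygous male 1, and 14.8 to 21.0 CPM (median 18.3) in the other 7, a median 4.34 times higher. Csf1r, the receptor on which macrophage survival depends, had the next widest gap, with 25.3, 17.9 and 25.6 CPM against 63.0 to 78.0 CPM (median 73.0). The 7 other libraries, of 3 genotypes and both sexes, lay within a narrow band for both genes.

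Ctss, a protease of the endosome, measured 16.6, 13.6 and 17.6 CPM in the low-Clec4f livers and 37.4 to 43.2 CPM (median 39.9) in the others. Cybb, the catalytic subunit of the phagocyte oxidase, measured 5.73, 3.99 and 5.96 CPM against 12.2 to 18.2 CPM (median 15.2). Mrc1, the mannose receptor that sinusoidal endothelium also carries, measured 12.2, 11.0 and 17.0 CPM against 25.6 to 40.6 CPM (median 35.8), and the female was the lowest of the 7. Msr1, a scavenger receptor for modified lipoproteins, measured 5.44, 5.77 and 6.02 CPM against 11.5 to 15.2 CPM (median 13.2). Aif1, Fcgr1 and Mertk were the pan-macrophage genes whose sets overlapped, with differences of -0.83, -0.94 and -0.33.

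Complement genes made by macrophages were lower together. C1qa, C1qb and C1qc encode the chains of C1q, which recognises antibody and dying cells. C1qb measured 23.2, 21.9 and 24.9 CPM in the low-Clec4f livers against 45.6 to 54.8 CPM (median 52.0). C1qa and C1qc had differences of -0.99 and -0.95, and Cfp, which encodes properdin, of -1.02. C3ar1 was separated too, and C5ar1, the sixth gene of the list, had a difference of -0.51 with overlapping sets.

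Transcription factors were mixed. Of 12 factors that act in Kupffer cells, 5 were separated below and 0 above, with a median of -0.29. Spi1, which encodes PU.1, measured 2.26, 2.44 and 2.86 CPM against 4.95 to 7.69 CPM (median 6.28). Zeb2, which maintains Kupffer cell identity, measured 3.24, 2.44 and 4.17 CPM against 8.08 to 11.8 CPM (median 8.74). Irf8 and Maf were separated with differences of -0.59 and -0.97. Cebpb, Rxra, Nr1h3, Id3, Tfec and Klf4 were among the factors with overlapping sets.

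Most signals that hold Kupffer cells in their niche were lower, but not all were separated. Of 17 niche genes, 16 passed the filter, 8 were separated below and 0 above, and the median difference was -0.56. Tgfb1 measured 2.84, 2.80 and 4.41 CPM against 5.46 to 8.98 CPM (median 6.67). Acvrl1, the endothelial receptor for BMP9 and BMP10, measured 1.68, 1.61 and 1.67 CPM against 2.65 to 3.92 CPM (median 3.06). Vcam1, an adhesion molecule of sinusoids, measured 5.85, 6.43 and 6.02 CPM against 8.80 to 23.4 CPM (median 13.5), with homozygous male 1 far above the rest. The other separated members were Notch1, Gdf2, Bmp2, Bmp10 and Eng. The ligands Csf1 and Il34, which bind the receptor encoded by Csf1r, had overlapping sets, with differences of -0.59 and 0.05.

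Genes of recruited monocytes and of inflammatory activation were at low levels. Of 14 monocyte and scar macrophage genes, 6 passed the filter and 3 were separated below: Itgal, Clec7a and Ccr2. Itgal, an integrin chain of leukocytes, measured 5.33, 4.82 and 6.73 CPM against 14.5 to 19.0 CPM (median 16.9). Defining monocyte genes were low in both sets: Ly6c2 did not exceed 0.588 CPM and Chil3 0.348 CPM in any library. Of 17 activation and cytokine genes, 11 passed and 8 were separated below, among them Ccl6, Tlr4, Cd14, Ccl24, Il1b, Nlrp3, Tlr2 and Il1rn. Tlr4, the receptor for endotoxin, measured 0.695, 1.25 and 1.37 CPM against 2.52 to 3.39 CPM (median 2.85). Il6, Il10 and Tnf did not exceed 0.297 CPM in any library, and no activation gene was separated above.

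Antigen presentation genes followed, with the female close to the low-Clec4f set. Of 13 class II and dendritic cell genes, 9 passed, 3 were separated below and 0 above, and the median was -1.05. Cd74, the invariant chain of class II molecules, measured 24.4, 16.7 and 34.1 CPM against 37.3 to 123 CPM (median 70.1). The female, at 37.3 CPM, was the lowest of the other 7, and homozygous males 2 and 3 were the highest at 123 and 114 CPM. H2-Aa, H2-Ab1 and H2-Eb1, the class II chains, had differences of -1.55, -1.32 and -1.31, and their sets overlapped through the female.

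Genes of sinusoidal endothelium, a different cell type of the same vessel, were lower by a similar median. Of 22 endothelial genes, 19 were separated below and 0 above, with a median of -1.04. Stab2, a scavenger receptor for hyaluronan, measured 26.5, 24.0 and 31.5 CPM in wild-type males 2 and 3 and heterozygous male 1, against 45.5 to 64.2 CPM (median 57.5). Tek, the angiopoietin receptor, measured 3.36, 4.40 and 4.11 CPM against 7.66 to 12.9 CPM (median 10.0). Cdh5, the cadherin of endothelial junctions, measured 7.30, 6.97 and 10.9 CPM against 16.7 to 25.2 CPM (median 19.2). Rspo3, a Wnt amplifier from central vein endothelium, measured 2.43, 2.50 and 3.04 CPM against 5.42 to 6.53 CPM (median 5.85). Clec4g, Egfl7 and Wnt9b were the members whose sets overlapped, each because the female lay within or below the low-Clec4f range.

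Heterozygous male 1 differed from the 2 wild-type livers in this respect. Within the heterozygous males its endothelial median was -0.52, against -1.31 for wild-type males 2 and 3 relative to wild-type male 1. For pan-macrophage genes the same medians were -1.08 and -1.19. The summed pan-macrophage level was 228 CPM in heterozygous male 1, between the 2 wild-type livers at 234 and 184 CPM, and the other 7 libraries held 440 to 520 CPM. The summed endothelial level was 388 CPM in heterozygous male 1 and 242 and 288 CPM in wild-type males 2 and 3, against 484 to 703 CPM in the others. Whether the endothelial and macrophage differences between genotypes differ was not tested, since 1 heterozygous liver has no replicate in the set.

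Stellate cell and matrix genes were lower too, and heterozygous male 1 was again nearest to the other libraries. Of 21 genes, 10 were separated below and 0 above, and the median was -1.07. Colec10, a collectin of stellate cells, measured 7.24, 6.79 and 10.7 CPM against 22.0 to 28.9 CPM (median 25.3). Hgf, the hepatocyte growth factor, measured 1.27, 1.61 and 1.73 CPM against 4.15 to 5.36 CPM (median 4.69). Rgs5, a pericyte gene, measured 5.16, 7.08 and 8.58 CPM against 12.3 to 23.5 CPM (median 21.7), with the female lowest. Lrat, which stores retinol as esters and defines quiescent stellate cells, measured 6.78 and 8.57 CPM in wild-type males 2 and 3 but 17.9 CPM in heterozygous male 1, within the 13.5 to 19.1 CPM of the others. Collagen genes had overlapping sets, and Col3a1 in homozygous male 1 was at 4.60 CPM, below the 11.8 to 29.9 CPM of the low-Clec4f set.

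**Figure D2:**
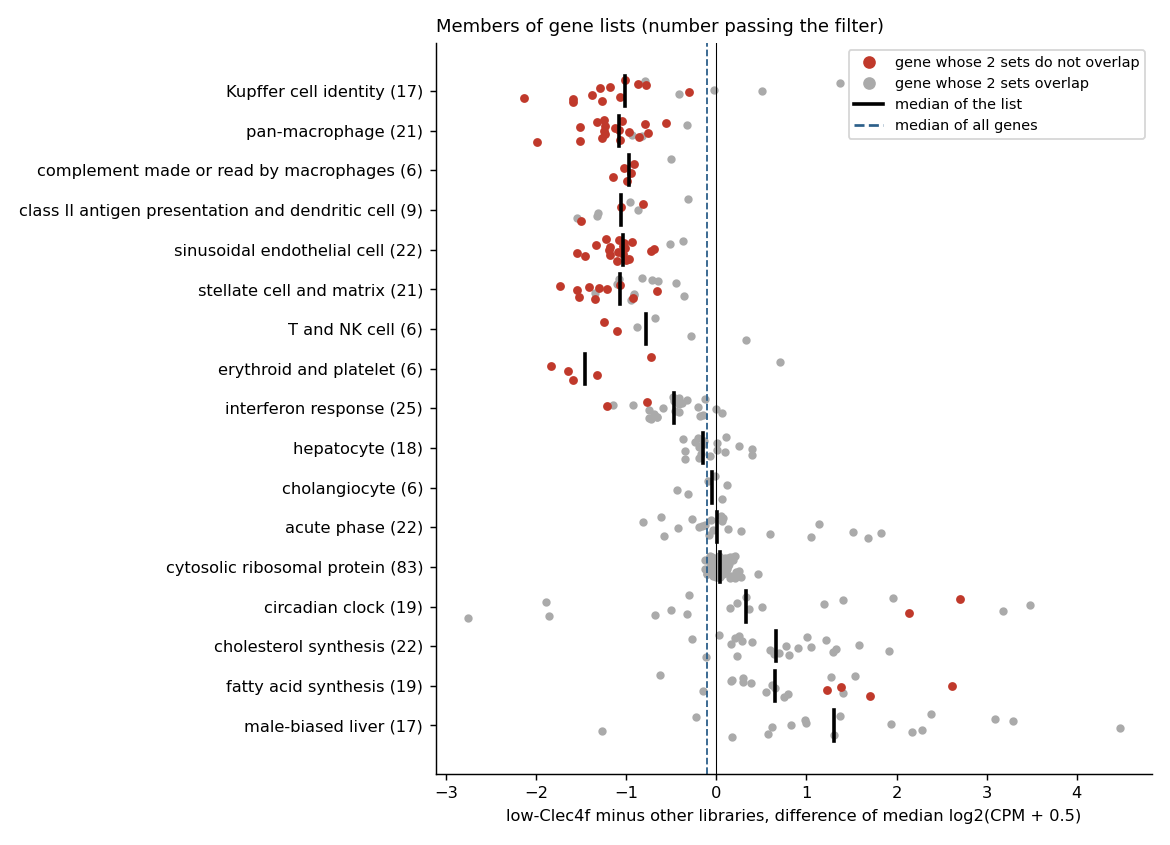
Difference of median log2(CPM + 0.5), low-Clec4f minus other libraries (horizontal), for the members of 17 gene lists (vertical, with the number that passed the filter), where red points are genes whose 2 sets do not overlap, black bars list medians and the dashed line the median of all genes, -0.11. Medians of the Kupffer identity, pan-macrophage, complement, class II, endothelial and stellate lists lie between -0.97 and -1.08, hepatocyte and ribosomal medians at -0.15 and 0.04.

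Genes of hepatocytes and bile ducts had overlapping sets. Of 18 hepatocyte genes, 0 were separated in either direction, and the median of -0.15 became 0.03 with TMM factors, so no direction is given. Alb, the albumin gene, measured 71984, 67766 and 49156 CPM in the low-Clec4f livers against 51802 to 103007 CPM in the others. Of 8 cholangiocyte genes, 6 passed and 0 were separated. Of 85 cytosolic ribosomal protein genes, 83 passed and 0 were separated, and the median was 0.04, or 0.13 with TMM factors and -0.06 with the deposited TPM.

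Red cell transcripts moved with the low-Clec4f set and were uneven among the other 7 libraries. Of 10 erythroid and platelet genes, 6 passed and 5 were separated below: 4 globin genes and Itga2b. Hbb-bs, an adult beta-globin, measured 15.5, 55.8 and 33.3 CPM in wild-type males 2 and 3 and heterozygous male 1, against 75.5 to 713 CPM (median 106). Wild-type male 1 at 713 CPM and heterozygous male 3 at 674 CPM stood far above the rest, whose highest value was 160 CPM in heterozygous male 2. The globin genes are near-identical pairs, so the division of reads within a pair is uncertain. Alas2, the first enzyme of haem synthesis in red cells, did not follow, with a difference of 0.71 and overlapping sets. Without the homozygotes the difference of Hbb-bs, -1.65 over the 10 libraries, was -4.32. Slc4a1, which marks erythroid cells, did not exceed 0.719 CPM in any library. The part of blood in the tissue in the macrophage and endothelial differences was not tested. Summed levels of the erythroid and platelet genes were 147 to 223 CPM in the low-Clec4f set and 259 to 2028 CPM in the other 7 libraries, without overlap.

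**Figure D3:**
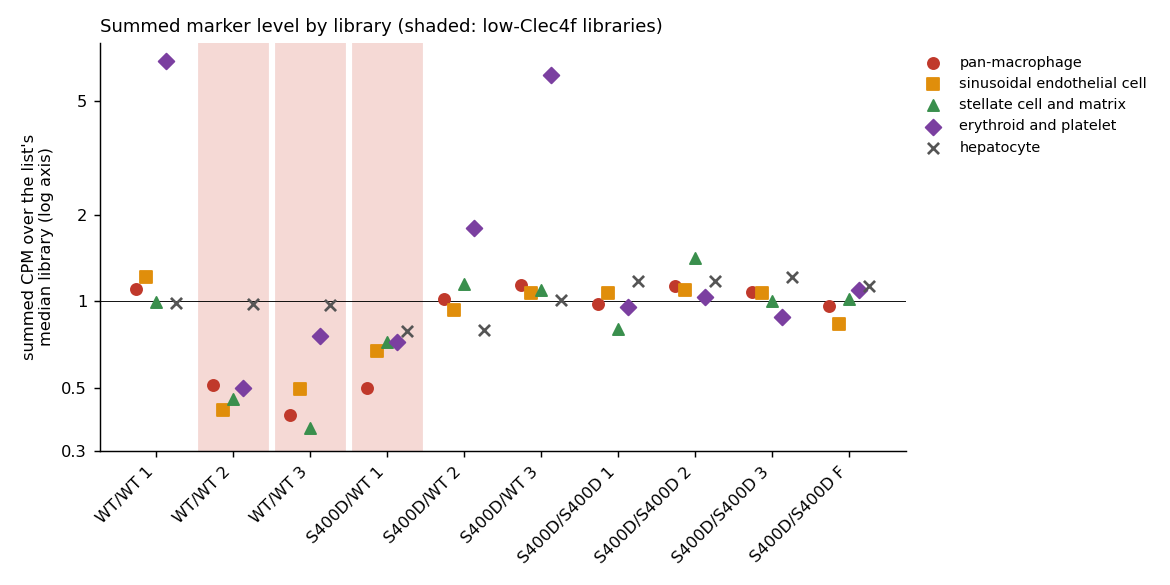
Summed CPM of 5 gene lists in each library, divided by the list's median library (vertical, log axis), with the low-Clec4f libraries shaded. Pan-macrophage sums are 184 to 234 CPM in the shaded libraries and 440 to 520 CPM elsewhere, hepatocyte sums overlap, and the erythroid sum is highest in wild-type male 1 and heterozygous male 3.

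Other blood cells were at low levels. Of 17 T and NK cell genes, 6 passed and 2, Gzmb and Ccl5, were separated below. The defining T cell genes Cd3e and Cd3d did not exceed 0.585 and 0.659 CPM in any library. Of 9 neutrophil genes 2 passed, and of 6 measured B and plasma cell genes 2 did so. Of 10 mesothelial, adipose and pancreas genes 2 passed and 0 were separated, and their median of 1.03 was 0.061 with a filter of 1 count, which tests more of them. Among these, Upk3b, a mesothelial gene, measured 2.09, 1.55 and 1.13 CPM in the low-Clec4f livers, with 0 to 3.03 CPM in the others and overlapping sets.

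Fewer genes were higher than lower in the low-Clec4f livers (103 against 1154, or 387 against 713 with TMM factors), and genes of sugar and fatty acid metabolism were among those with the widest gaps. Of 19 fatty acid synthesis genes, 4 were separated above and 0 below, and the median was 0.66. Pklr, the liver pyruvate kinase, measured 596, 568 and 564 CPM in wild-type males 2 and 3 and heterozygous male 1, against 53.9 to 415 CPM (median 217). Acacb, the acetyl-CoA carboxylase at mitochondria, measured 134, 209 and 202 CPM against 34.1 to 103 CPM (median 61.4). Elovl6, which lengthens fatty acids, measured 108, 115 and 245 CPM against 13.9 to 94.7 CPM (median 48.8). Thrsp, a lipogenic nuclear protein gene, measured 452, 572 and 710 CPM against 6.29 to 403 CPM (median 93.2). For all 4 genes homozygous male 1 held the lowest value. Without the homozygotes the list median was 0.32. In that comparison the differences of Pklr, Acacb, Elovl6 and Thrsp were 1.21, 1.07, 0.71 and 1.43. Over the 10 libraries they were 1.39, 1.71, 1.23 and 2.61. Among libraries with a clock index below -5 they were 1.15, 1.71, 0.71 and 1.43, and the list median was 0.51.

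Fasn and Scd1, the fatty acid synthase and the desaturase, had overlapping sets. Fasn measured 646, 870 and 1050 CPM against 69.8 to 759 CPM, and heterozygous males 2 and 3 lay within the range of the set at 686 and 759 CPM. Of 22 cholesterol synthesis genes 0 were separated, with a median of 0.67. That median was -0.23 within the heterozygous males and 1.15 within the wild-type males, so the 2 genotypes had opposite signs.

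The clock genes Per2 and Bhlhe41 were separated above, the only 2 of 19 clock genes that were separated. Per2, a repressor of the clock, measured 46.9, 42.3 and 67.0 CPM against 5.35 to 34.6 CPM (median 10.3). Among the other 7, wild-type male 1, heterozygous male 3 and the female were at 31.5 to 34.6 CPM and the remaining 4 were at 5.35 to 10.3 CPM. Bhlhe41 measured 7.07, 6.67 and 7.39 CPM against 0.185 to 5.70 CPM (median 0.661) and split the 7 libraries in the same way. Among libraries of like clock phase (an index below -5) the differences of 2.14 for Per2 and 2.70 for Bhlhe41 were 0.54 and 0.50. Arntl, which peaks in the opposite phase, measured 1.13 to 4.11 CPM in the low-Clec4f set and 1.66 to 37.0 CPM in the others.

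**Figure D4:**
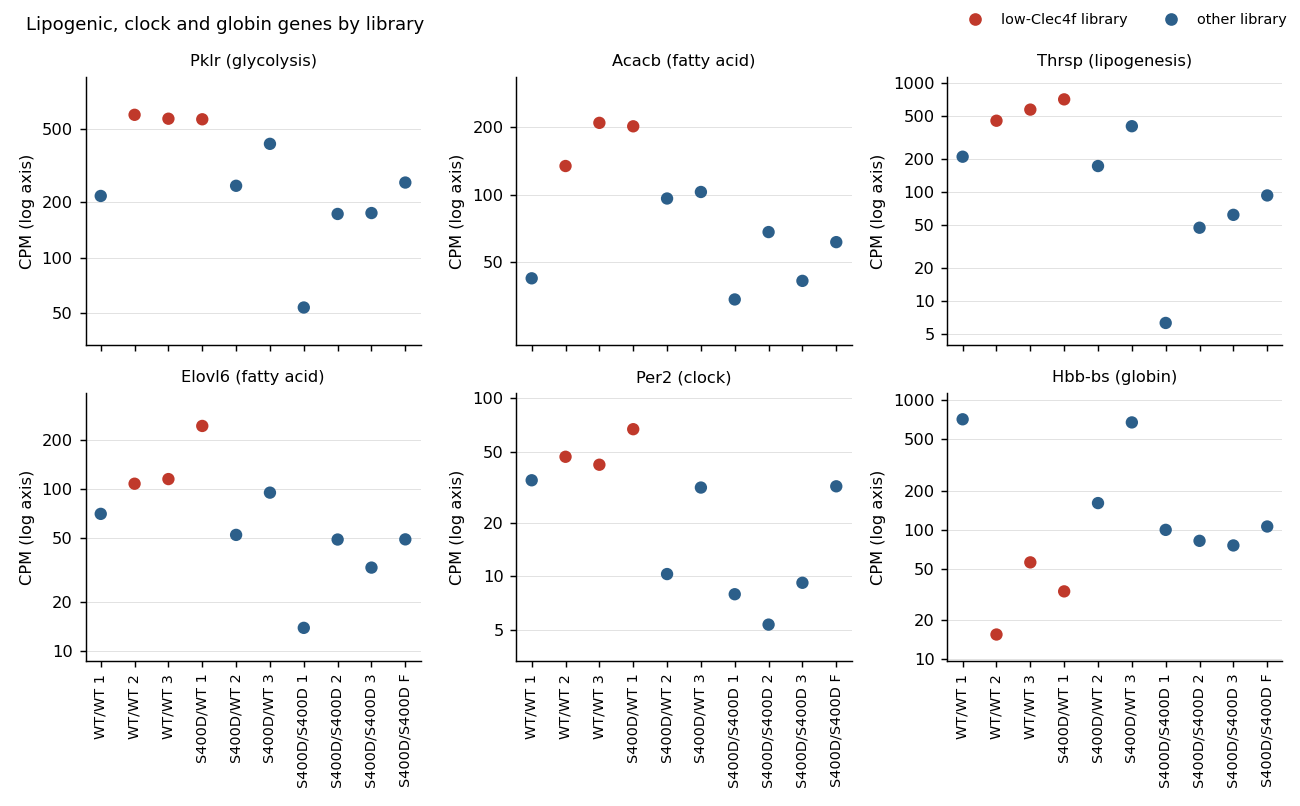
CPM on a log axis (vertical) of 6 genes outside the macrophage lists in each of the 10 libraries (horizontal), with low-Clec4f libraries in red. Red points lie above each blue point for Pklr, Acacb, Thrsp, Elovl6 and Per2 and below for Hbb-bs, where wild-type male 1 and heterozygous male 3 reach 713 and 674 CPM.

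To set livers of like clock phase side by side, the comparison was repeated, by a choice made after seeing the data, in the 6 libraries with an index below -5. They are the 3 low-Clec4f libraries, wild-type male 1, heterozygous male 3 and the female. Among these 6 libraries 2829 genes (23.9%) were separated below and 359 (3.03%) above. A gene separated over the 10 libraries must also be separated in these 6, so the counts that follow could not fall below those given above. The pan-macrophage genes were separated in 21 of 21 cases, the Kupffer markers in 13 of 17, the endothelial genes in 19 of 22 and the stellate genes in 15 of 21. Their medians were -1.19, -1.06, -1.06 and -1.07, beside -1.08, -1.01, -1.04 and -1.07 over the 10 libraries. The median of the male-biased liver genes, 1.30 over the 10 libraries, was 0.45 among these 6.

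Over the 10 libraries, 9088 genes had a regular name and a median of at least 5 CPM in the high-Clec4f set, and 56 of them (0.616%) were in the macrophage, monocyte, complement or antigen lists. Of the 50 such genes with the widest gaps below, 18 (36.0%) were in those lists, 2 in the endothelial list, 1 in the stellate list and 0 in the hepatocyte list, and 29 were in none of these. The ranking uses the split itself, genes entered by their level in the high-Clec4f set, and the lists were chosen with earlier results known. The shares therefore describe these libraries and support nothing beyond them. The 12 widest gaps belonged to Adgre1, Csf1r, Pira2, Vsig4, Cd5l, Ctss, Itgal, Pdk4, Colec10, Niban1, Cybb and Kctd12. Pdk4, a kinase that restrains glucose oxidation in fasting, measured 0.463, 1.31 and 1.49 CPM against 3.59 to 10.8 CPM (median 7.05). Pira2, a paired immunoglobulin-like receptor of myeloid cells with close relatives, measured 1.47, 1.04 and 1.27 CPM against 3.93 to 5.52 CPM (median 5.00), and reads shared with its relatives make its level uncertain.

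Among genes with a regular name and a median of at least 5 CPM in the low-Clec4f set, the 12 widest gaps above belonged to Epop, Zfp445, Pklr, Zfp970, Acacb, Alpk1, Per2, Slc41a1, Pfkfb3, Fgfr1, Il12rb1 and C77080. Epop, a partner of a Polycomb complex, measured 5.50, 6.67 and 5.48 CPM against 2.00 to 3.54 CPM (median 2.85). Zfp445, a zinc finger protein of imprinting control, measured 123, 136 and 133 CPM against 60.9 to 86.5 CPM (median 77.6). Under these limits on name and level, the widest gap above, 0.56 for Epop on the log2 scale, was smaller than the widest below, 1.42 for Adgre1.

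Clec4f lies on the same chromosome as Htra2, so its neighbours were examined. Of 54 other genes within 2 Mb of Clec4f, 39 passed the filter, and 5 were separated below and 0 above, beside 9.74% and 0.87% of all genes. The median was -0.08, and 0.02 with TMM factors. The 5 separated genes were Hk2, Dok1, Dctn1, Mob1a and Dysf. Stambp, the nearest listed gene on one side at 68716 bases, measured 11.2, 12.9 and 12.4 CPM against 9.67 to 15.4 CPM. Cd207, a related lectin gene 15091 bases away on the other side, measured 1.80, 1.25 and 0.179 CPM against 0.647 to 1.16 CPM. Neither neighbour was separated.

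Because the set crosses genotypes, each gene was also ordered within the wild-type males (2 and 3 against 1) and within the heterozygous males (1 against 2 and 3). Of 11843 genes, 3696 (31.2%) were lower in the low-Clec4f libraries within both genotypes and 768 (6.48%) were higher within both. With TMM factors the counts were 2132 lower and 2135 higher, so the excess of lower genes was not seen under that scaling. In CPM, of the lists, 20 of 21 pan-macrophage genes, 13 of 17 Kupffer markers, 22 of 22 endothelial genes, 18 of 21 stellate genes and 4 of 18 hepatocyte genes were lower within both. For Adgre1 the difference was -2.36 within the wild-type males and -1.66 within the heterozygous males. For Csf1r the same values were -1.78 and -1.43, and for Vsig4 -1.63 and -1.53. Each within-genotype value sets 3 libraries side by side, so it has no test.

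**Figure D5:**
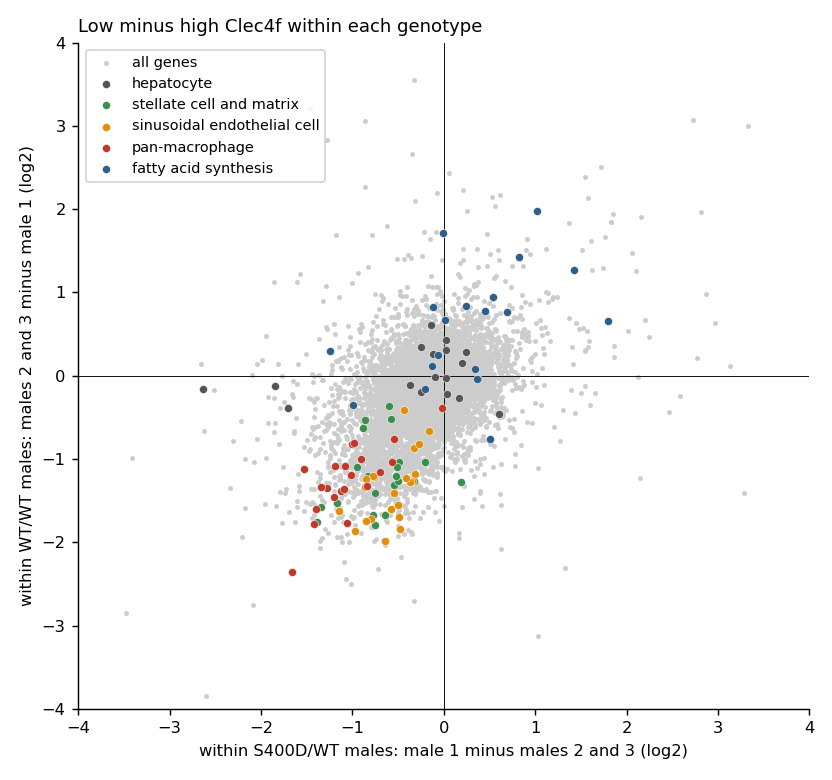
Each gene's low minus high Clec4f difference (log2) within S400D/WT males (horizontal) and within WT/WT males (vertical), with 5 lists coloured and all genes in grey; 8 genes lie outside the plotted range. Pan-macrophage points cluster in the lower left corner around -1.08 and -1.19, endothelial points sit farther down than left, and hepatocyte points spread around 0.

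The genotype groups were compared over the 9 males with edgeR's quasi-likelihood test. The clock index was -5.61, -5.92 and -5.21 in wild-type males 1 to 3 and 1.91, 1.02 and 4.91 in homozygous males 1 to 3. In heterozygous males 1 to 3 it was -7.73, 2.39 and -5.35. Genotype and clock phase therefore cannot be told apart between homozygous and wild-type males. At an adjusted p of 0.05 edgeR called 0 of 12427 genes (0%) between homozygous and wild-type males, 0 between heterozygous and wild-type males and 0 between homozygous and heterozygous males. At an unadjusted p under 0.05 the counts were 1852, 521 and 2134 genes, limma-voom called 0 in each contrast, and DESeq2 called 308, 7 and 545. Clec4f averaged 66.5 ± 42.5 CPM in wild-type males, 84.5 ± 31.3 CPM in heterozygous males and 102 ± 5.01 CPM in homozygous males (SD, n = 3). The homozygous against wild-type log2 fold change of Clec4f was 0.58 with a standard error of 0.38, and edgeR's adjusted p was 0.49.

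In edgeR, which called no gene, the Kupffer, pan-macrophage, endothelial and stellate medians were positive in each contrast. The low-Clec4f set holds 2 of 3 wild-type males and 0 homozygotes, so these medians reuse that split and give it no separate support. Between homozygous and wild-type males the median log2 fold change was 0.62 for the Kupffer markers, 0.57 for pan-macrophage genes, 0.54 for endothelial genes and 0.76 for stellate genes, beside 0.00 over all genes. Other lists had medians of the opposite sign, among them interferon response genes at -0.34 and erythroid and platelet genes at -1.43. At an unadjusted p under 0.05, where 6.82% of all genes tested were higher and 8.08% lower, 5 Kupffer markers were higher and 1 lower, and 1 pan-macrophage gene was higher. At that level 3 of 22 endothelial and 6 of 16 niche genes were higher. For stellate genes 8 of 21 were higher at that level, and for class II genes 5 of 9. Adgre1 had a log2 fold change of 0.88 with a standard error of 0.63 and an adjusted p of 0.53 in edgeR, with 3 of 3 homozygous males above wild-type males 2 and 3 and 0 of 3 above wild-type male 1. Within the wild-type males Adgre1 spanned 3.21 to 21.0 CPM, which is wider than the distance between any 2 genotype means. Leaving out wild-type male 1, the wild-type male outside the low-Clec4f set, gave 18 edgeR calls for this contrast. Leaving out homozygous male 2 gave 2. Between heterozygous and wild-type males the list medians were 0.17, 0.34, 0.28 and 0.55 in the same order, beside 0.01 over all genes. At an unadjusted p under 0.05, where 1.67% of all genes were higher and 2.52% lower, 4 stellate genes were higher and 0 genes of the Kupffer, pan-macrophage and endothelial lists passed. Between homozygous and heterozygous males, where 8.25% of all genes were higher and 8.92% lower at that level, 3 Kupffer markers were higher and 1 lower, and 1 pan-macrophage and 1 endothelial gene were higher.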

How the data were processed

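Liver RNA of 10 mice was measured by poly(A) RNA-seq. The authors deposited 1 table with expected counts (estimated reads per transcript, not normalised), FPKM and TPM for each library. Per the file headers, the FPKM and TPM columns stand beside the counts; FPKM was not used, and deposited TPM served as an alternative scaling. HISAT, Bowtie2 and the build GRCm38.p6 appear in the submitters' processing notes. Their versions and roles, and the counting program, are not stated there or in the labels. Strand use is not given either, and reads of near-identical genes (globins, Mup genes, Pira2) cannot be divided with certainty.

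Counts of 77712 transcripts were summed to 19271 genes, 19214 of them matched to RefSeq, and divided by library totals of 16240441 to 17264289 to give CPM. A library with Clec4f under 70 CPM was low. Genes with at least 1 CPM in 3 libraries were compared by whether the 2 sets overlapped and by the difference of median log2(CPM + 0.5), with no test, since the sets were chosen from the data. Genotypes were compared over 9 males with edgeR 4.0.16 in R 4.3.3 (quasi-likelihood test, rounded counts, TMM, edgeR's own filter, Benjamini-Hochberg adjustment at 0.05). The fit was also run on simulated counts with the same set spread for every gene. That run does not tell how many real changes the fit could miss in these males.

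Members and gene lists were chosen with earlier results of these data known. Named genes were Clec4f and its listed Kupffer markers, the separated members of each list with the widest gaps (4 per list), the 12 widest gaps in each direction among genes with a regular name and a median of at least 5 CPM in the higher set, and the 2 neighbours of Clec4f. Other genes with values (such as Lrat, Col3a1, Mob1a, H2-Aa, Alb, Fasn, Csf1, Arntl and Upk3b) were chosen with their values known. Alternatives were TMM factors, TPM, filters of 1 count or 5 CPM, a pseudocount of 0.1, males only, wild-type and heterozygous males only, each library left out, DESeq2 1.42.0, limma-voom (limma 3.58.1), DESeq2's size factors, 10 libraries in the fit, no filter and a replicate block. The comparison of libraries of like clock phase was added after seeing the data.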

Additional observations from a re-analysis of the deposited data

Results flagged for a closer look

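Among 90 named genes, 8 had 1 library far from the other 6 of the high-Clec4f set by Dixon's ratio, which chance alone gives in about 1 in 20 groups. Homozygous male 1 was the highest of the 7 for 4 of them: Cd163 at 29.9 CPM, Vcam1 at 23.4 CPM, Ccl6 at 12.4 CPM and Cd14 at 5.42 CPM. Cd163 takes up haemoglobin, Vcam1 and Ccl6 act in leukocyte adhesion and attraction, and Cd14 is a co-receptor for endotoxin. Heterozygous male 2 was the highest for Zeb2 at 11.8 CPM and the lowest for Hexa, a lysosomal enzyme, at 43.0 CPM. The female was the lowest for the pericyte gene Rgs5 at 12.3 CPM. Homozygous male 3 was the lowest for Fgfr1, a growth factor receptor, at 3.16 CPM.

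Cd207, the neighbour of Clec4f, went opposite ways in the 2 genotypes. The low-Clec4f heterozygous male lay below both other heterozygous males, with a difference of -0.91, and both low-Clec4f wild-type males lay above the remaining one, with a difference of 0.52. The levels were 0.179 to 1.80 CPM, and the difference between genotypes was not tested.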

How the results depend on the processing

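The list medians for Kupffer, pan-macrophage, endothelial and stellate genes stayed negative with TMM factors and with deposited TPM. Of 82 separated named genes, 75 remained separated with TMM factors and 78 with TPM, and each kept its direction. The other settings (filters, a pseudocount, fewer libraries) cannot end a separation, so they say nothing about its stability. Counts of separated genes depended on scaling and on the number of libraries. The count below, 1154, was 713 with TMM factors, 747 with a filter of 5 CPM, 2852 in wild-type and heterozygous males only, 2829 in libraries of like clock phase, and 1211 to 1939 with 1 library left out. The count above, 103, was 387 with TMM factors, 47 with TPM, 160 in males only, 385 in wild-type and heterozygous males only, 359 in libraries of like clock phase, and 107 to 221 with 1 library left out. The share of separated genes that lay below was 91.8%, and 64.8% with TMM factors. Genes ordered within both genotypes numbered 2132 below and 2135 above with TMM factors, 510 above with TPM, and 1016 to 1266 above with 1 library left out. Fewer libraries leave fewer comparisons for a gene to fail, which is part of how those counts are made. For the rest the cause was not tested.

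Of 21 stellate genes, 10 were separated below over the 10 libraries and 16 without the homozygotes, beside 1154 and 2852 of 11843 genes. The transcription factor median was -0.16 with TMM factors, -0.021 with a filter of 5 CPM, -0.39 with a pseudocount of 0.1 and -0.46 to -0.29 with 1 library left out. The complement median was -1.10 with TPM and -1.09 to -0.95 with 1 library left out. The activation median was -0.55 with TPM, -0.45 with a filter of 1 count, -0.77 with 5 CPM, -1.09 with a pseudocount of 0.1 and -0.91 to -0.71 with 1 library left out. The monocyte median was -0.22 and the mesothelial median 0.061 with a filter of 1 count, and the T and NK cell median was -1.12 with a pseudocount of 0.1. The erythroid median was -3.80 both without the homozygotes and in libraries of like clock phase. The neutrophil median ran from -0.45 to -0.044 and the immediate early median from -0.24 to -0.047 with 1 library left out, and the latter was -0.032 with a filter of 5 CPM. The median within 2 Mb of Clec4f was 0.019 with TMM factors. The ribosomal median was 0.13 with TMM factors, -0.060 with TPM and -0.050 to 0.081 with 1 library left out.

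For genotypes, edgeR's 0 calls became 308, 7 and 545 with DESeq2 (homozygous against wild-type, heterozygous against wild-type and homozygous against heterozygous males). With 1 library left out edgeR called 0 to 18 between homozygous and wild-type males, 0 between heterozygous and wild-type males and 0 to 6 between homozygous and heterozygous males, and the 6 came without homozygous male 2. With the replicate number as a block edgeR called 0 genes in each contrast. The numbers did not pair the males: over 9 same-number pairs the correlation of deviations ran from -0.44 to 0.20, and 2 of 9 males correlated best with their own number. Depth limits the weakest genes: library totals were 16240441 to 17264289 counts, so values well below 1 CPM rest on few reads.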

Other observations

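Lysosomal genes, which macrophages use heavily and other liver cells also express, did not follow the macrophage markers. Of 22 genes, 1 was separated below (Hexa) and 0 above, and the median difference was -0.18 beside -0.11 over all genes. Hexa, a subunit of hexosaminidase, measured 38.5, 41.7 and 42.8 CPM in wild-type males 2 and 3 and heterozygous male 1, against 43.0 to 62.3 CPM (median 56.9). Ctsc and Lipa, which cleave peptides and cholesteryl esters, had differences of -0.62 and -0.52 with overlapping sets.

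Of 25 interferon response genes that passed, 2 were separated below (Gbp2 and Cxcl9), beside 9.74% of all genes. Within both genotypes 18 of the 25 were lower and 0 higher, beside 31.2% and 6.48% of all genes, and the median was -0.47. Gbp2, a GTPase induced by interferon gamma, measured 2.14, 2.50 and 2.68 CPM against 5.11 to 7.60 CPM (median 6.47). Isg15 measured 11.7, 18.2 and 9.95 CPM against 3.09 to 22.1 CPM, and the lowest value was that of homozygous male 1. Of 22 acute phase genes, 0 were separated, and the median was 0.0046. Of 17 male-biased liver genes, 0 were separated. Their median of 1.30 was 0.71 within the heterozygous males and -0.01 within the wild-type males, and it was 0.25 without the homozygotes. Between homozygous and wild-type males 13 of the 17 were lower at an unadjusted p under 0.05 in edgeR, beside 8.08% of all genes tested. After adjustment there were 0 calls, and clock phase could not be told apart from genotype in this contrast. Near-identical copies make the levels of Mup and Cyp4a12 genes in that list uncertain.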
